A study of Mus musculus with 8 samples.

Results

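Chemokines are small secreted proteins that guide cells along gradients, and chemokine receptors are the G protein-coupled receptors on the cells that follow them. The genes described here are all those whose symbol is Ccl, Cxcl, Ccr or Cxcr followed by a number and at most 1 lower-case letter. The files hold 59 such entries (53 symbols) of 52636 genes: 43 ligand and 16 receptor entries. Expression was measured by RNA sequencing of whole liver from C57BL/6 mice at 8 weeks of age. All 8 samples carried floxed Ctcf on both alleles. Of these, 4 had no Cre (CTCF fl/fl Albcre-, called WT). The other 4 had Cre under the albumin promoter (CTCF fl/fl Albcre+, called cKO), which is active in hepatocytes. Which other cells of the tissue kept the floxed gene was not tested. None of the groups carried Cre without the floxed gene, so Cre itself and loss of Ctcf cannot be told apart.

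CC ligands have their leading pair of cysteines side by side and CXC ligands have 1 residue between them, and receptors are named after the ligand class they bind. In liver, sinusoidal endothelium, stellate cells, Kupffer cells and hepatocytes all make chemokines, and T cells, NK cells, monocytes and neutrophils carry most of the receptors. Some are made at all times and hold cells in place, and others are induced through NF-kB or interferon signals. Because these are whole livers, fewer cells of a type and less RNA per cell cannot be told apart.

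Levels are given in CPM, counts scaled to a common library total with TMM factors. The libraries held between 43899455 and 57279605 counts, at which a gene without a count could still have stood at 0.0511 to 0.0708 CPM (3 counts, counting error only). Ctcf was lower in every cKO library (10.9 to 13.1 CPM) than in every WT library (16.0 to 16.9 CPM, log2 change -0.44, edgeR adjusted p = 0.00202). In TPM, the deposited level scaled by transcript length and library without TMM factors, the genotypes overlapped for Ctcf. It ranged from 5.34 to 6.04 TPM in WT and from 4.56 to 5.42 TPM in cKO. Hepatocyte markers were the most abundant of the marker lists in every library (summed 90027 to 117452 CPM in WT and 100438 to 112629 CPM in cKO). Of these 10 markers 5 were lower (Ttr, Fgb, Serpina1a, Apoa1 and Hnf4a) and 1 higher (Cps1) in cKO, with a median log2 change of -0.20. Of all tested genes 15.1% were lower and 15.3% higher. With library size alone 3 of the 10 markers were lower, and in limma on log2(TPM + 1) 1 was. Ly6g, of neutrophils, was at 0 in all 8.

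Of the 59 entries 26 passed the filter on low counts and were tested, 19 ligands and 7 receptors. Ccl5, Cxcl14, Cxcl16, Ccl9 and the receptor Cxcr4 rose in cKO, and Cxcl13, Cxcl12 and Ccl27a fell (edgeR adjusted p under 0.05 over all 15562 tested genes). That is 8 of 26 members, or 30.8%, where 30.4% of all tested genes were called (15.3% higher and 15.1% lower), so the share called was near the background. The median log2 change was 0.20 over the 26 members and -0.01 over all tested genes. The CPM of the genotypes did not overlap for 8 members, or 30.8% against 30.6% of all tested genes, and all 8 were ligands: the 7 called ligands and Ccl19.

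**Figure D1:**
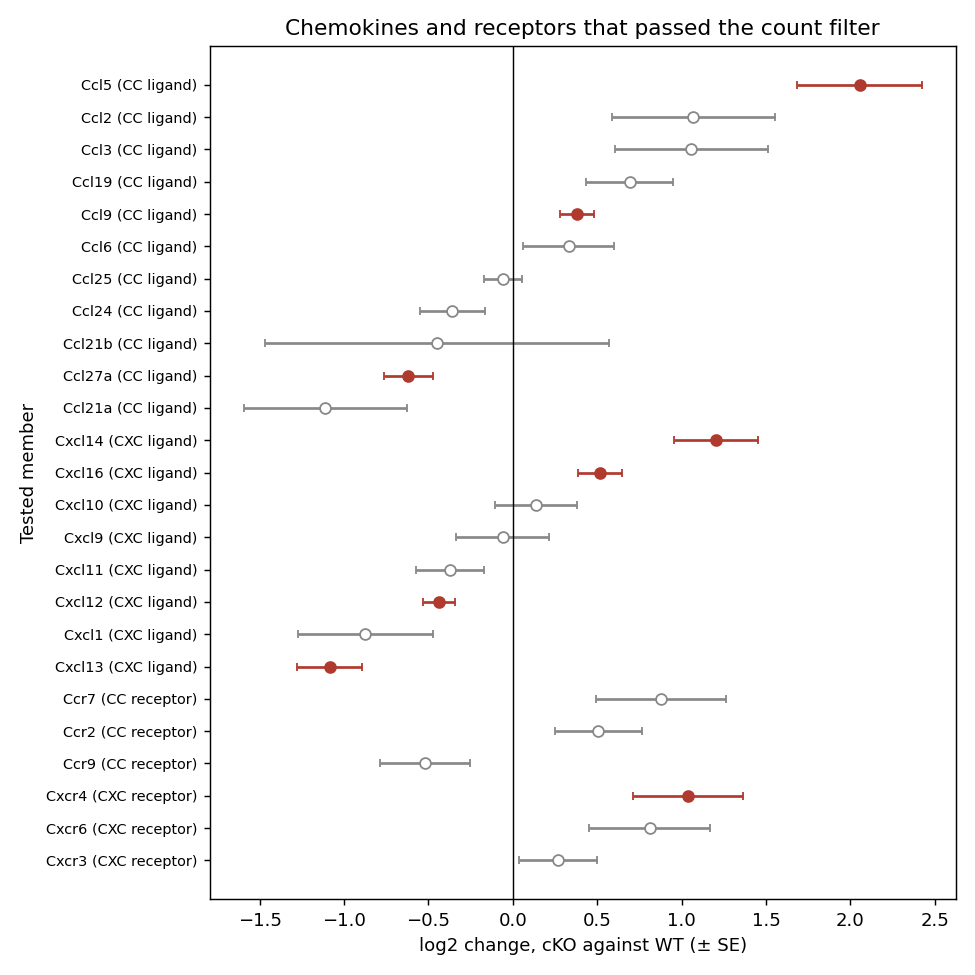
The log2 change in cKO against WT (horizontal axis, with SE) of 25 of the 26 tested members (vertical axis), grouped by class. Filled red points are the 8 members with an edgeR adjusted p under 0.05, from -1.09 for Cxcl13 to 2.05 for Ccl5, and open grey points were not called.

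Promoter sequences were looked up in RefSeq's table of GRCm38.p6, which matched 37 of the 53 symbols and 6 of the 8 called members. Ccl5 and Cxcl16 were not matched. The 250 bases before each annotated start were searched on both strands for the NF-kB consensus, the CTCF core consensus and GAAANNGAA, the interferon-stimulated response element. The fourth pattern was TGANTCA, which the AP-1 family of stress-induced factors binds. The fifth was the core promoter element known as the TATA box, searched as TATAAA. The following 4 are shown because they belong to a member that rose (Ccl9), to the most abundant ligand and another that fell (Cxcl12 and Cxcl13), and to a textbook NF-kB target that was not called (Cxcl1). Capitals mark every match to the 5 patterns, and matches on opposite strands may overlap. The windows are chr11:83578637-83578886 (minus strand), chr6:117168285-117168534, chr5:95956689-95956938 and chr5:90890995-90891244 (plus strand), each printed 5′ to 3′ up to the base before the start.
Ccl9: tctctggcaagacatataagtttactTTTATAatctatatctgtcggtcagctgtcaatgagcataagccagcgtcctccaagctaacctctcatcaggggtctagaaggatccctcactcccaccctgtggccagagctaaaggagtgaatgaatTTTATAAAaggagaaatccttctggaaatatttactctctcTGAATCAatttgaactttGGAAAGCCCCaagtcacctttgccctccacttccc
Cxcl12: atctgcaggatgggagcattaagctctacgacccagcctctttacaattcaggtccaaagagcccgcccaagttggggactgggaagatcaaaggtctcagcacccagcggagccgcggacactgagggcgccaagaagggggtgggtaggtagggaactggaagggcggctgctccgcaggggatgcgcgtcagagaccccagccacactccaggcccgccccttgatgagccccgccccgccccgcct
Cxcl13: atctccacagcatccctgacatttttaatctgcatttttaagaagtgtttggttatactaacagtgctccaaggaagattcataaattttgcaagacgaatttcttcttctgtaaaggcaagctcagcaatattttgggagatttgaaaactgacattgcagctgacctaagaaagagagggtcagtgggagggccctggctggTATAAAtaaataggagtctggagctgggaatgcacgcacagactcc
Cxcl1: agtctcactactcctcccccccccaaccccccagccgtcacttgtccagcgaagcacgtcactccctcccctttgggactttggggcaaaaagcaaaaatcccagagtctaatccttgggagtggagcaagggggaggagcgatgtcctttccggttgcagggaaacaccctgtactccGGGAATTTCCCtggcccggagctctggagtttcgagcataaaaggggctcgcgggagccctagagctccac

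The Ccl9 window held 1 NF-kB match on the minus strand, 1 AP-1 match and 3 TATA matches, 2 of which overlap on opposite strands. Cxcl1 held 2 NF-kB matches that overlap on opposite strands, Cxcl13 held 1 TATA match, and Cxcl12 held no match to any of the 5. The NF-kB consensus was found upstream of 8 of 37 member genes (Ccl20, Ccl9, Ccr3, Ccr6, Cxcl1, Cxcl10, Cxcl2 and Cxcl3), in 18.2% of 44 member promoters and 3.9% of all 32851 promoters in the table. Of those 8 genes only Ccl9 was called, and Cxcl1 and Cxcl10 were the other two that could be tested. The interferon pattern was found for 8 member genes, among them Cxcl9, Cxcl10, Ccl19 and Cxcl14 (18.2% of member promoters and 7.13% of all), of which Cxcl14 was called. AP-1 was found in 13.6% of member promoters and 6.75% of all, and TATA in 22.7% and 12.4%. The CTCF consensus was in 0 of 44 member promoters and 0.508% of all, which says only that these letters are not in these windows. A match describes letters, and binding was not tested.

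Among the CC ligands, Ccl5 had the largest log2 change of the 26 tested members. It encodes RANTES, which T cells and NK cells make and which binds CCR1 and CCR3 among its receptors (chr11:83525778-83530518, GRCm38). Its level was 1.84, 1.39, 1.03 and 1.15 CPM in WT replicates 1 to 4 and 2.62, 4.79, 8.66 and 6.49 CPM in cKO replicates 1 to 4. The genotypes did not overlap, and the cKO libraries spread more widely than the WT libraries, with replicate 1 nearest to WT. The means were 1.35 ± 0.36 and 5.64 ± 2.56 CPM (SD, n = 4 each), a log2 change of 2.05 (SE 0.37, edgeR adjusted p = 0.00433).

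Some markers of T and NK cells rose in cKO, as Ccl5 did. Of 11 tested markers of these cells, 5 were higher and 0 lower in cKO, where 15.3% of all tested genes were higher. The 5 were Cd8a, Gzma, Nkg7, Cd3e and Cd3d, with log2 changes of 2.65, 2.56, 1.12, 1.03 and 1.00. None of the 13 markers was at 0 in all libraries. Summed, they stood at 6.53, 5.31, 4.72 and 5.76 CPM in WT replicates 1 to 4 and 7.71, 10.7, 13.6 and 11.7 CPM in cKO replicates 1 to 4. The cKO libraries stood in the same order for this sum as for Ccl5, while the WT libraries did not. Cd8a, the alpha chain of the CD8 coreceptor, had 0.440, 1.11, 2.11 and 1.31 CPM in cKO replicates 1 to 4 and 0.165 to 0.234 CPM in WT. The part of these cells in the level of Ccl5 was not tested.

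**Figure D2:**
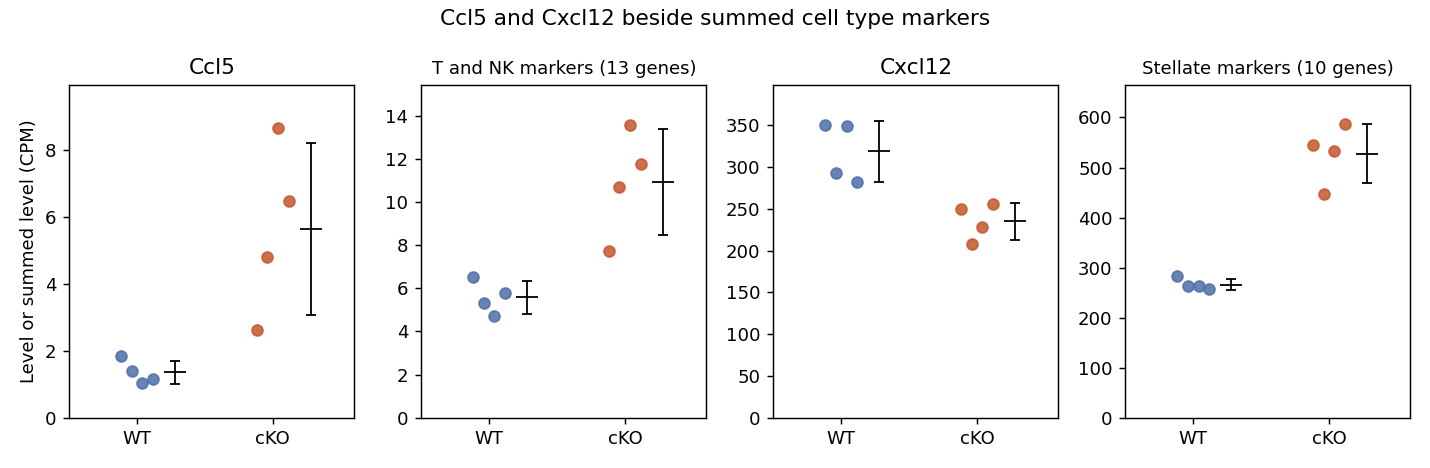
Level per library in CPM (vertical axis) in WT and cKO (horizontal axis): Ccl5, the summed T and NK cell markers, Cxcl12, and the summed stellate cell markers. Points are libraries in replicate order from left to right, and the bar beside them is the mean with SD of 4; Ccl5 and the T and NK sum are lowest in cKO replicate 1 (2.62 and 7.71 CPM) and highest in cKO replicate 3 (8.66 and 13.6 CPM), while Cxcl12 is lower and the stellate sum higher in every cKO library.

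Of the receptors of Ccl5, Ccr1 and Ccr3 were under the filter, with at most 13 and 21 counts in a library.

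Ccl9, a mouse chemokine that binds CCR1, lies in the same cluster as Ccl5 (chr11:83572917-83578636). It stood at 21.5, 23.2, 22.9 and 23.1 CPM in WT and at 24.5, 29.4, 28.6 and 35.5 CPM in cKO. The genotypes did not overlap, with a narrow range in WT and cKO replicate 4 highest (log2 change 0.38, SE 0.10, edgeR adjusted p = 0.0149). In TPM, without TMM factors and with length scaling, the level went from 14.9 ± 1.09 to 24.7 ± 5.15 TPM (the deposited level scaled by transcript length and library; SD, n = 4 each), and with library size alone the log2 change was 0.48. The effective length that RSEM assigned to the gene was 1595 ± 58.1 bases in WT and 1433 ± 116 bases in cKO. Ccl6, a near relative that also binds CCR1, was not called: it ranged from 3.83 to 8.96 CPM in WT and from 5.82 to 8.78 CPM in cKO (log2 change 0.33, edgeR adjusted p = 0.386). WT replicate 4 was the highest of all for Ccl6, and without it the log2 change was 0.65 with an edgeR adjusted p of 0.0206.

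The cluster on chromosome 11 from Ccl5 to Ccl4 spans 139 kb and holds 5 members. Of the 4 tested, Ccl5 and Ccl9 rose and Ccl6 and Ccl3 were not called. All 4 had positive log2 changes, as did 7649 of all 15562 tested genes. Ccl3, which encodes MIP-1 alpha, stood at 0.155 ± 0.073 CPM in WT and at 0.327 ± 0.157 CPM in cKO (log2 change 1.06, edgeR adjusted p = 0.0975). Ccl4, of MIP-1 beta, was under the filter with 3 to 8 counts in WT and 9 to 25 counts in cKO. The annotated spans of Ccl3 and Ccl4 overlap, and without a stated strand setting their reads may not be separated.

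The other cluster of CC ligands on chromosome 11 spans 144 kb and holds Ccl2, Ccl7, Ccl11, Ccl12, Ccl8 and Ccl1. Only Ccl2, the monocyte attractant MCP-1, passed the filter, and it was not called (0.306, 0.071, 0.092 and 0.094 CPM in WT and 0.287, 0.173, 0.480 and 0.290 CPM in cKO; log2 change 1.07, edgeR adjusted p = 0.116). WT replicate 1 lay among the cKO libraries. Without it the log2 change was 1.82 and the edgeR adjusted p 0.0263. Its receptor Ccr2, of inflammatory monocytes, stood at 0.767 ± 0.185 CPM in WT and at 1.08 ± 0.32 CPM in cKO (log2 change 0.51, edgeR adjusted p = 0.162). Limma on log2(TPM + 1), where levels are scaled by length and without TMM factors, called both Ccl2 and Ccr2 higher.

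Ccl27a, an epithelial chemokine known for drawing T cells to skin through CCR10, fell. It stood at 13.1, 13.3, 12.8 and 10.4 CPM in WT and at 9.51, 9.61, 6.91 and 6.27 CPM in cKO. Every cKO library was lower than every WT library, with cKO replicates 3 and 4 lowest (log2 change -0.62, SE 0.15, edgeR adjusted p = 0.00898). In TPM the genotypes overlapped for Ccl27a, with 25.7 to 32.4 TPM in WT and 16.7 to 26.2 TPM in cKO. Limma on log2(TPM + 1) still called it lower (log2 change -0.45, limma adjusted p = 0.0378). The span of Ccl27a (chr4:41769467-41774225) overlaps that of Il11ra1, the interleukin 11 receptor, so that reads in the overlap can be divided in different ways. Il11ra1 stood at 38.2 ± 1.56 CPM in WT and at 35.4 ± 3.79 CPM in cKO and was not called (log2 change -0.11, edgeR adjusted p = 0.333). Summing the 4 entries named Ccl27a or Ccl27b gave a log2 change of -0.62 (edgeR adjusted p = 0.00889). Ccr10 had at most 9 counts in a library.

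Ccl19 and the Ccl21 genes encode the ligands of CCR7, which brings T cells and dendritic cells to lymphoid tissue. Ccl19 was at 0.286, 0.307, 0.344 and 0.257 CPM in WT and 0.536, 0.499, 0.351 and 0.545 CPM in cKO. The genotypes did not overlap, though by little in cKO replicate 3, and the gene was not called (log2 change 0.69, edgeR adjusted p = 0.0600). Leaving out cKO replicate 3 brought it past the threshold (log2 change 0.83, edgeR adjusted p = 0.0377). Ccl19 was also called higher with library size alone (edgeR adjusted p = 0.0325). So it was in limma on log2(TPM + 1) and log2(TPM + 0.1) (limma adjusted p = 0.00569 and 0.00623). Ccl21a stood at 3.61, 1.93, 2.84 and 1.053 CPM in WT and at 0.938, 1.04, 0.406 and 1.98 CPM in cKO, with overlap (log2 change -1.11, edgeR adjusted p = 0.118). Leaving out WT replicate 4 (log2 change -1.35, edgeR adjusted p = 0.0466) or cKO replicate 4 (-1.58, 0.0433) brought it past the threshold. Ccl21b ranged from 0 to 2.41 CPM in WT and from 0.166 to 1.86 CPM in cKO (log2 change -0.45, edgeR adjusted p = 0.773). The Ccl21 copies are near identical and share reads, so their 6 entries were also summed: 6.20, 3.33, 3.002 and 1.52 CPM in WT and 1.59, 1.59, 0.610 and 4.10 CPM in cKO. The sum varied widely within each genotype and was not called (log2 change -0.83, edgeR adjusted p = 0.351). Ccr7 was not called either (0.243 ± 0.162 and 0.453 ± 0.063 CPM, log2 change 0.88, edgeR adjusted p = 0.107), and without WT replicate 1 its log2 change was 1.27 with an edgeR adjusted p of 0.0476. Limma on log2(TPM + 1) and log2(TPM + 0.1) called Ccr7 higher (limma adjusted p = 0.0440 and 0.0489).

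The remaining tested CC ligands were Ccl24, of eosinophil attraction and made by macrophages, and Ccl25, the ligand of CCR9. Ccl24 had 1.92 ± 0.41 and 1.49 ± 0.25 CPM (log2 change -0.36, edgeR adjusted p = 0.176). Ccl25 averaged 5.57 ± 0.63 and 5.35 ± 0.47 CPM (-0.06 on the log2 scale, edgeR adjusted p = 0.730). For its receptor Ccr9 it was -0.52 (edgeR adjusted p = 0.159).

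Among the CXC ligands, Cxcl12 was by far the most abundant chemokine, with 56.4 ± 2.09% of the ligand TPM in WT and 49.0 ± 3.04% in cKO (SD, n = 4 each). It encodes SDF-1, which retains blood cells and progenitors through CXCR4 and is scavenged by ACKR3 (chr6:117168535-117181368). In counts it was at 351, 293, 349 and 283 CPM in WT and 249, 208, 228 and 256 CPM in cKO. Every cKO library was lower than every WT library (log2 change -0.44, SE 0.10, edgeR adjusted p = 0.00650).

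In TPM, which differ from the CPM both in the length scaling and in having no TMM factors, Cxcl12 was not called. It had 128, 111, 123 and 110 TPM in WT and 110, 91.9, 107 and 121 TPM in cKO, with overlapping genotypes and with cKO replicate 4 among the WT libraries. Limma on log2(TPM + 1) gave a log2 change of -0.14 (adjusted p = 0.272). The effective length assigned to the gene, which weights its transcripts by their estimated share, was 2868, 2809, 2931 and 2691 bases in WT and 2630, 2622, 2598 and 2567 bases in cKO. These lengths did not overlap between the genotypes, which held for 1 of the 8 called members and for 6.6% of all tested genes. With library size alone, without TMM factors, the change of its counts was -0.33 on the log2 scale (edgeR adjusted p = 0.0222). Taken gene by gene against the counts with TMM factors, library size alone shifted the log2 change by a median of 0.11 over all genes. For limma on log2(TPM + 1) the median shift was 0.15.

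Stellate cells and sinusoidal endothelium are known sources of CXCL12. All 10 stellate markers were higher in cKO (summed 257 to 282 CPM in WT and 447 to 588 CPM in cKO, with none at 0), the opposite direction to Cxcl12. Of all tested genes 15.3% were higher. Of 10 endothelial markers edgeR called 0 in either direction (1 at an unadjusted p under 0.05, and DESeq2, limma-voom and limma on log2(TPM + 1) each called 1 higher; summed 175 to 341 CPM in WT and 241 to 366 CPM in cKO). The part of these cells in the level of Cxcl12 was not tested.

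**Figure D3:**
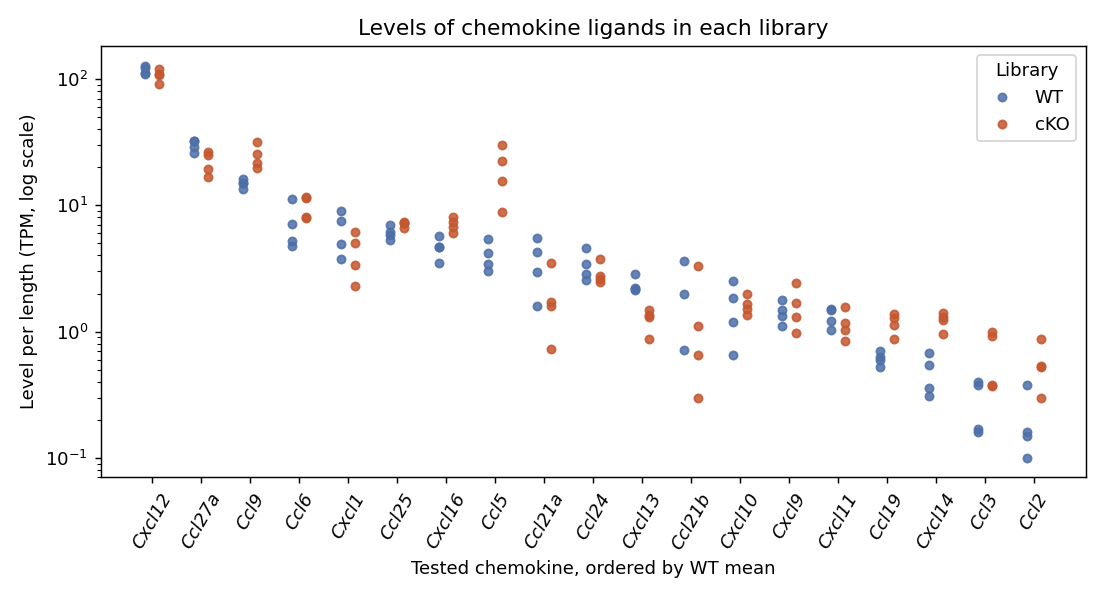
Level per length in TPM (vertical axis, log scale) of the 19 tested ligands (horizontal axis, ordered by WT mean), 1 point per library, with WT in blue and cKO in red; a library at 0 (Ccl21b in WT replicate 3) has no point. Cxcl12 lies highest in both genotypes with overlapping libraries, and Ccl5 moves from 3.995 TPM on average in WT to 19.2 TPM in cKO.

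By mean TPM the ligands after Cxcl12 were Ccl27a (29.8 ± 3.15), Ccl9 (14.9 ± 1.09), Ccl6 (7.10 ± 2.98), Cxcl1 (6.29 ± 2.39), Ccl25, Cxcl16 and Ccl5 (3.995 ± 1.07) in WT. In cKO they were Ccl9 (24.7 ± 5.15), Ccl27a (21.9 ± 4.55), Ccl5 (19.2 ± 9.12) and Ccl6 (9.69 ± 2.003). By mean, Ccl5 was at rank 8 in WT and rank 4 in cKO. Neither rank is resolved from its neighbours. In WT the libraries of Ccl5 overlapped those of Ccl6, Cxcl1, Ccl25, Cxcl16, Ccl21a, Ccl24 and Ccl21b. In cKO they overlapped those of Ccl9, Ccl27a and Ccl6.

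Both receptors of CXCL12 moved the other way from its count. Cxcr4 stood at 0.449, 0.873, 0.275 and 0.492 CPM in WT and at 0.689, 1.46, 0.960 and 1.16 CPM in cKO. WT replicate 2 lay above cKO replicate 1, so the genotypes overlapped (log2 change 1.04, SE 0.33, edgeR adjusted p = 0.0319). The call was lost without WT replicate 1, 3 or 4 or cKO replicate 2, 3 or 4 (edgeR adjusted p 0.0508 to 0.0889, log2 changes 0.83 to 1.09). Ackr3, which is no member by its symbol, stood at 0.224, 0.165, 0.092 and 0.281 CPM in WT and at 0.785, 0.479, 0.646 and 0.630 CPM in cKO, without overlap (log2 change 1.72, edgeR adjusted p = 0.00264).

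Cxcl13, which draws B cells into follicles through CXCR5, fell (chr5:95956939-95961068). It stood at 1.98, 1.98, 2.09 and 2.64 CPM in WT and at 1.09, 1.13, 1.18 and 0.698 CPM in cKO. The genotypes were well apart, with WT replicate 4 highest and cKO replicate 4 lowest (log2 change -1.09, SE 0.19, edgeR adjusted p = 0.00217). Cxcr5 was under the filter with 4 to 15 counts in WT and 5 to 16 counts in cKO. Of 6 B cell markers edgeR, DESeq2 and limma-voom called 0 in either direction (1 at an unadjusted p under 0.05 in each; summed 9.33 to 16.7 CPM in WT and 8.18 to 14.7 CPM in cKO).

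Cxcl14, an epithelial and stromal chemokine, rose (chr13:56288643-56296811). It stood at 0.571, 0.802, 0.390 and 1.053 CPM in WT and at 1.74, 1.36, 1.75 and 1.601 CPM in cKO. The genotypes did not overlap, and WT varied more than cKO (log2 change 1.20, SE 0.25, edgeR adjusted p = 0.00482).

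Cxcl16 is made as a membrane-bound ligand that holds CXCR6-bearing T and NKT cells in the sinusoids (chr11:70454389-70459984). It rose from 6.02, 6.70, 4.49 and 5.90 CPM in WT to 9.11, 8.13, 6.98 and 8.82 CPM in cKO. The genotypes were close but did not overlap, with WT replicate 2 just under cKO replicate 3 (log2 change 0.52, SE 0.13, edgeR adjusted p = 0.0128). Its span overlaps that of Zmynd15, which was not called (6.68 and 5.48 CPM on average; log2 change -0.29, edgeR adjusted p = 0.329). Its receptor Cxcr6 stood at 0.490, 0.377, 0.252 and 0.328 CPM in WT and at 0.287, 0.556, 0.850 and 0.852 CPM in cKO. The genotypes overlapped through cKO replicate 1, and the gene was not called (log2 change 0.81, edgeR adjusted p = 0.106), but without that library its log2 change was 1.05 with an edgeR adjusted p of 0.0238.

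**Figure D4:**
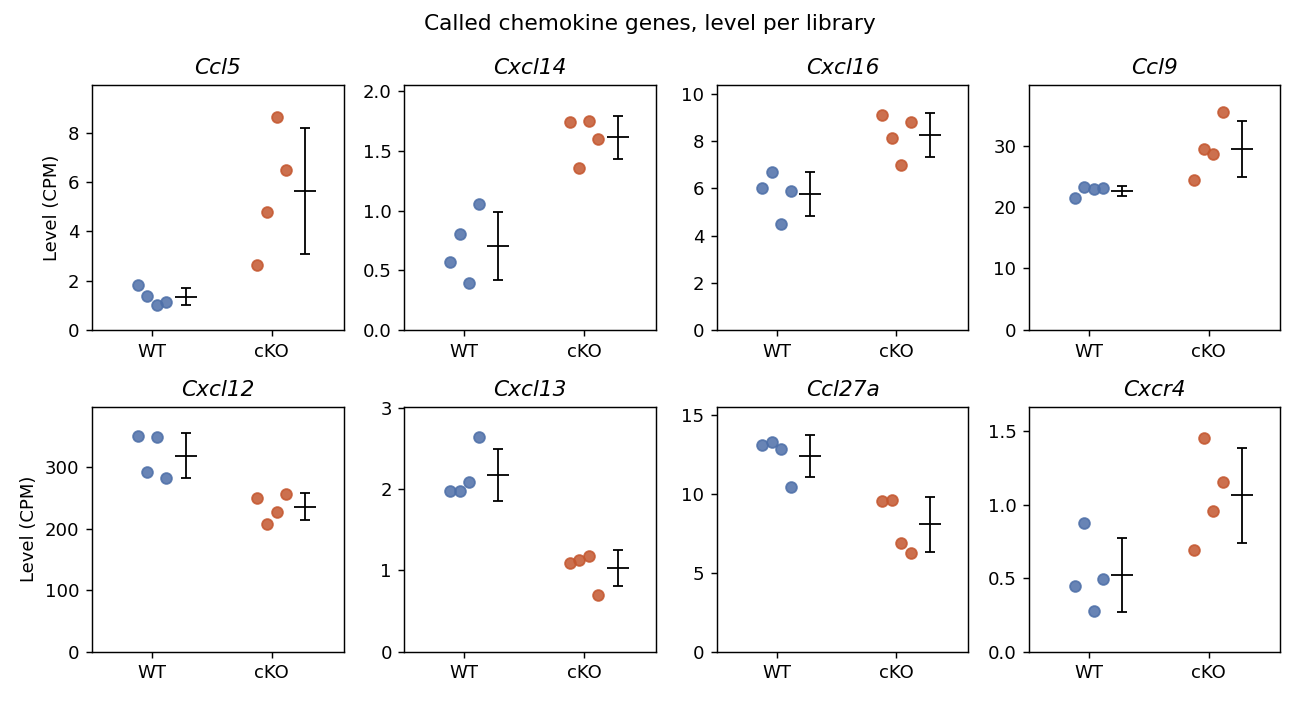
Level in CPM (vertical axis) of the 8 called members in WT and cKO (horizontal axis). Points are libraries in replicate order from left to right, the bar beside them is the mean with SD of 4, and each axis starts at 0; only Cxcr4 shows overlap, with WT replicate 2 at 0.873 CPM and cKO replicate 1 at 0.689 CPM.

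The interferon-induced ligands Cxcl9, Cxcl10 and Cxcl11, which bind CXCR3 on activated T cells and lie together within 42 kb on chromosome 5, were not called. Cxcl9 stood at 3.83, 4.55, 2.98 and 2.76 CPM in WT and at 5.47, 2.99, 2.18 and 2.93 CPM in cKO, with cKO replicate 1 highest of all (log2 change -0.06, SE 0.27, edgeR adjusted p = 0.888). The change of Cxcl10 was 0.14 on the log2 scale (SE 0.24, edgeR adjusted p = 0.695) and that of Cxcl11 -0.37 (SE 0.20, edgeR adjusted p = 0.187). Without cKO replicate 1, Cxcl11 was called lower (log2 change -0.57, edgeR adjusted p = 0.0425). The gene Art3, whose span overlaps Cxcl10 and Cxcl11, was higher (0.820 and 1.77 CPM on average, log2 change 1.12, edgeR adjusted p = 0.00311). Cxcr3 had 0.520 ± 0.088 and 0.627 ± 0.121 CPM (log2 change 0.27, edgeR adjusted p = 0.406).

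The neutrophil attractants lie in a cluster of 147 kb on chromosome 5 that holds Cxcl5, Cxcl3, Cxcl15, Cxcl1 and Cxcl2. Cxcl1 (KC) alone passed the filter. It stood at 3.59, 4.67, 7.49 and 9.06 CPM in WT and at 4.92, 4.22, 1.68 and 2.73 CPM in cKO. Each genotype spread widely, the genotypes overlapped and the gene was not called (log2 change -0.87, SE 0.40, edgeR adjusted p = 0.137). Cxcl2 had at most 11 counts and Cxcl5 at most 1, and Cxcl3 and Cxcl15 had none in any library. The tested neighbour within the cluster, Pf4 of platelets, was not called (log2 change 0.66, edgeR adjusted p = 0.214). Their receptor Cxcr2 had 3, 3, 3 and 7 counts in WT and 5, 25, 2 and 4 counts in cKO. The summed level of 8 neutrophil markers was likewise highest in cKO replicate 2 (10.5 CPM, against 3.43 to 3.58 CPM in the other cKO libraries and 3.51 to 5.76 CPM in WT), and whether the counts of Cxcr2 come from those cells was not tested.

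Of the 7 tested receptors Cxcr4 was the only 1 called by edgeR. Ccr9, Ccr7, Cxcr3 and Cxcr6 had mean levels under 1 CPM in both genotypes. Ccr9, Cxcr6 and Ccr2 lie near each other on chromosome 9, and none of them was called by edgeR or DESeq2. Cxcr6 was under 0.05 in edgeR before adjustment, and limma on log2(TPM + 1) and log2(TPM + 0.1) called Ccr2. Their tested neighbours Xcr1, a receptor of dendritic cells, and Fyco1 were not called either (log2 changes 0.00 and -0.14).

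Of the 33 entries under the filter, 6 had no count in any library: Ccl26, Ccl27b, Cxcl3, Cxcl15, Cxcl17 and a second entry of Ccl19. The other 27 had at most 25 counts in a library. Ccl1, Ccl12, Ccr4, Ccr8 and Cxcl5 never had more than 1 count, Ccl21c and both further Ccl21b entries never more than 2, and Ccl20, Ccl11, Ccr6 and both further Ccl27a entries never more than 3. The highest count was 4 for Ccl8, 5 for Cxcr1, 7 for Ccl17, 8 for Ccl7, 9 for Ccl28 and 17 for a further entry of Ccl21a. Ccl4, Ccl22 (a ligand of CCR4), Ccr3 and Cxcr2 reached 20 counts or more. In the edgeR fit without a filter 0 of these 27 were called and 6 were under 0.05 before adjustment. Positive changes were those of Ccl4 (log2 change 1.23, edgeR adjusted p = 0.0836), Ccl22 (1.14, 0.129) and the further entry of Ccl21a (2.67, 0.115). Negative changes were those of Ccl21c and both further Ccl21b entries (-3.83 and edgeR adjusted p = 0.0863 for each), which held identical counts in every library.

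The system includes genes that the symbol rule leaves out, and 58 were listed by role: other ligands, other and atypical receptors, signalling, upstream inducers, and glycan and protease handling. Of 54 tested, 13 were higher and 4 lower in cKO (31.5%, against 30.4% of all genes), with a median log2 change of 0.14. Among 4 tested ligands Cx3cl1, the membrane-bound fractalkine, was higher (0.857, 0.519, 0.527 and 0.585 CPM in WT and 1.57, 1.32, 1.11 and 1.14 CPM in cKO; log2 change 1.03, edgeR adjusted p = 0.00547). Its receptor Cx3cr1, of monocytes, was higher too (0.298 to 0.449 CPM in WT and 0.479 to 0.823 CPM in cKO; log2 change 0.86, edgeR adjusted p = 0.0306). Both were free of overlap, and Cx3cl1 lies between Ccl22 and Ccl17 on chromosome 8. Mif, a cytokine that also acts through CXCR2 and CXCR4, was lower (log2 change -0.68).

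Among 20 signalling genes, 5 were higher and 1 lower (30%, against 30.4% of all tested genes). The inhibitory G protein subunits Gnai2 and Gnai3, through which chemokine receptors act, had log2 changes of 0.47 and 0.33, and the beta subunit Gnb1 0.28. The beta-arrestin Arrb1, of receptor internalization, had 0.62 and the receptor kinase Grk3 0.32, while the phospholipase Plcb3 had -0.33. With library size alone and in limma on log2(TPM + 1), 0 of the 20 were called lower. Of the genes best known from leukocytes, Dock2, Rac2 and Rgs1 were not called (log2 changes 0.14, 0.07 and 0.79, edgeR adjusted p = 0.506, 0.686 and 0.109).

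Of 16 tested upstream inducers 3 were higher and 1 lower (25%, against 30.4% of all tested genes). The interferon gamma receptor chains Ifngr1 and Ifngr2 had log2 changes of 0.21 and 0.50, the TNF receptor Tnfrsf1a 0.44, and the interferon-induced factor Irf1 -0.54. The genotypes overlapped for Irf1, with cKO replicate 1 at 34.0 CPM and WT replicate 2 at 33.4 CPM. Limma on log2(TPM + 1) called 0 of the inducers lower. The cytokine Ifng was under the filter, at no more than 0.057 CPM in any library, and so was Tnf, at 0.184 to 0.468 CPM in WT and 0.092 to 0.172 CPM in cKO. Of 6 genes of glycan and protease handling, Mmp12, which is also on the list of macrophage markers, and Mmp2, which cleave matrix and chemokines, had log2 changes of 3.24 and 1.35, and Sdc4, a heparan sulfate carrier, had -0.54. Sdc4 was not called in limma on log2(TPM + 1), which called 0 of the 6 lower. Dpp4, which trims chemokine ends, was not called (log2 change 0.21, edgeR adjusted p = 0.0507).

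Some markers of other cells that carry chemokine receptors were also higher, and this differed by list. Of 8 tested markers of monocytes and recruited macrophages 5 were higher and 0 lower, with a median log2 change of 0.92 (Mmp12 3.24, Gpnmb 1.90, Itgax 1.23, Cd9 1.08 and Trem2 0.76). Their sum was 49.4 to 69.7 CPM in WT and 58.8 to 74.0 CPM in cKO, most of it from Lyz2, which was not called (44.4 and 38.3 CPM on average). Of 6 dendritic cell markers 3 were higher and 0 lower, with a median of 0.88 (sums 8.96 to 13.9 and 12.1 to 14.8 CPM), beside a median of 0.90 for the T and NK cell markers. Of 9 Kupffer cell markers 1 was higher and 0 lower, with a median of -0.07 (sums 276 to 427 and 233 to 378 CPM). EdgeR called 0 of 4 tested neutrophil markers, with a median of 0.98, and DESeq2 called 1 of them higher. The sum of the 8 listed neutrophil markers was 3.51 to 5.76 CPM in WT and 3.43 to 10.5 CPM in cKO. Only cKO replicate 2 lay above the WT libraries. Among 6 B cell markers edgeR called 0, with a median of -0.23. The share higher among all tested genes was 15.3%. Differences between these lists were not tested. Their part in the levels of chemokines and receptors was not tested.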

How the data were processed

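Liver RNA of 4 WT and 4 cKO samples was sequenced. Per the labels' protocols, RNA was taken with Trizol from frozen liver and libraries were made with a TruSeq RNA kit. Per the submitters' processing notes, STAR 2.5.1 and RSEM were used with mm10. The sources used here give no RSEM version, annotation or strand setting. The authors deposited expected counts (estimated counts per gene, with shared reads divided between genes), effective lengths and TPM, which they scaled by length to the same total per library. The labels name replicates but not separate mice, so the spread behind each p-value may be technical.

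Expected counts were rounded, filtered with filterByExpr (minimum count 10, minimum total 15), scaled with TMM factors and tested in edgeR 4.0.16 (R 4.3.3; estimateDisp, robust glmQLFit, glmQLFTest) with Benjamini-Hochberg adjustment over 15562 genes at 0.05. SEs came from the F statistic. All pairs of libraries of a genotype differed by more than counting noise (lowest chi-square over its degrees of freedom, 28.4). The fit was tested on simulated data.

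The members and lists were chosen with earlier results of these data known. By rule, called members (and Ccl5) were named with all 8 values, their ligands or receptors with values, other tested members with their change, members under the filter with their highest count, pathway genes where called, and the tested neighbours within a cluster. Other genes (Art3, Zmynd15, Il11ra1, Dock2, Rac2, Rgs1, Dpp4, Ifng, Tnf) were named after their values were seen. The values of 1 tested receptor, which the counts include, are not reported here. Positions and promoters are RefSeq's for GRCm38; 52 of 53 symbols had a position. Clusters join members at most 300 kb apart. NF-kB was searched as its IUPAC consensus and CTCF as the core of its own. Alternatives were other scaling factors, library size alone, other filters, a replicate block, DESeq2 1.42.0, limma 3.58.1 (voom, and on log2 TPM with pseudocounts of 1 and 0.1) and leaving out each library. Summing of paralog entries and edgeR's legacy form were added after seeing the data.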

Additional observations from a re-analysis of the deposited data

Results flagged for a closer look

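Of 60 groups of 4 libraries (the tested members and those with 20 or more counts in a library, by genotype), 7 had 1 library far from the other 3 by Dixon's criterion; chance flags about 1 in 20 groups. In WT replicate 1, Ccl2 was high at 0.306 CPM (others 0.0708 to 0.0936) and Ccl9 low at 21.5 CPM (others 22.9 to 23.2). In WT replicate 4, Ccl27a was low at 10.4 CPM (others 12.8 to 13.3), Cxcl13 high at 2.64 CPM (others 1.98 to 2.09) and Cxcr2 high at 0.164 CPM (others 0.0612 to 0.0708). In cKO replicate 2, Cxcr2 was high at 0.479 CPM (others 0.0369 to 0.0957), and in cKO replicate 4 Ccr3 was high at 0.358 CPM (others 0.0923 to 0.134). Those of Cxcr2, Ccr3 and Ccl2 rest on 7 to 25 counts.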

How the results depend on the processing

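Of 152 values of the 8 called members under the alternatives, 144 kept their direction and call, 8 kept the direction and lost the call and 0 reversed; the 8 are Cxcr4 without 1 library (6) and Cxcl12 in TPM (2), given above. Of 336 values of the 18 members not called, 17 passed the threshold. Limma on log2(TPM + 1) and on log2(TPM + 0.1) each called 9 members higher and 2 lower (5 and 3 in counts), the pathway list 20 and 1 (13 and 4 in counts), and all genes 3848 and 875, and 3847 and 878 (2386 and 2352 in counts). Library size alone called 3621 genes higher and 1335 lower, so 73.1% of calls were higher against 50.4%; 6 members were then higher and 3 lower. Leaving out 1 library gave 4 to 6 members higher and 3 to 4 lower. Same-numbered libraries had correlations of 0.042 to 0.057 in their deviations, so the numbers were not taken as pairs; with the replicate block 5 members were higher and 3 lower, and WT replicate 4 correlated best with cKO replicate 2. Low counts limit the 33 members under the filter, and the Ccl21, Ccl27 and Ccl3 to Ccl4 genes share reads or overlap.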
